A study of Drosophila melanogaster with 12 samples.

Results

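The mitochondrial complex I genes described here are all genes with a probe set whose only platform gene symbol starts with ND-, with the brightest probe set standing for a gene that has more than 1. The rule gave 31 genes of the 10844 named on the array, from 32 probe sets of the 13966 that were not controls, and it used no difference between samples. Of these, 26 name subunits of the enzyme, and the other 5 (ND-20L, ND-24L, ND-51L1, ND-51L2 and ND-B14.5AL) carry the name of another subunit with a suffix and are described apart as like-named duplicates.

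The samples were pooled heads of adult Drosophila melanogaster of the strain y w, which carries mutations in the body colour gene yellow and the eye colour gene white. All flies had been kept for 3 days in cycles of 12 h light and 12 h dark. The LD group holds 6 arrays from a further light/dark day, at Zeitgeber times ZT4, ZT8, ZT12, ZT16, ZT20 and ZT24, counted from lights-on. The DD group holds 6 arrays from the following day in constant darkness, at circadian times CT4 to CT24 in the same steps. Each time point is 1 array of RNA from about 100 to 200 heads, so no time point was repeated, and p-values measure the scatter of single arrays around a fitted course, which may be technical. The labels give neither the age nor the sex of the flies. In pooled heads, fewer cells of a type and less RNA per cell cannot be told apart.

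Complex I takes electrons from NADH and passes them along a chain of iron-sulfur clusters to ubiquinone, while protons are pumped across the inner mitochondrial membrane. Its matrix arm holds the N module, where NADH is oxidised, and the Q module, where ubiquinone is reduced. Its membrane arm holds a proximal and a distal part. A few core subunits carry the chemistry, some of them encoded in mitochondrial DNA and not analysed here, and many accessory subunits surround them. Photoreceptors, neurons and flight muscle are known for a high demand for respiration. In Drosophila, duplicates of nuclear genes for respiratory subunits are often expressed mainly in testis.

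Head markers were present: the arrestin gene Arr2 had a mean of 12.13 (log2) and the photoreceptor channel gene trp of 9.72, while the neuronal gene elav was dim at 3.32. Marker genes of other tissues and of RNA quality differed between arrays. The 3' minus 5' signal of 3 control transcripts was 3.12 (log2) at ZT4, 3.45 at CT12 and 2.64 at CT4, and it lay between 1.69 and 2.20 in the other 9 arrays. The score of 19 thoracic muscle markers (their mean after each gene was centred) lay between -0.636 and 0.0217 in LD and between -0.124 and 0.778 in DD. A score of 18 midgut markers varied more, between -0.999 and 1.43 in LD and between -1.02 and 1.29 in DD. That of 8 fat body markers lay between -0.0695 and 0.337 in LD and between -0.449 and 0.0203 in DD. The score of 26 testis and male accessory gland markers was 1.02 at CT12, 0.461 at CT4 and between -0.374 and 0.0963 in the other arrays. The means of these markers ran from 2.40 to 7.63, and 12 of the 26 lay above the medians of all arrays, Mst84Dd, Mst98Ca and Mst84Db being the brightest, while the testis tubulin gene betaTub85D ranged from 3.31 to 3.91.

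The 26 subunit probe sets were bright, with means between 6.95 and 10.33 (log2) for 25 of them, against array medians between 4.93 and 4.96. The exception was ND-B8, an accessory subunit of the N module, with a mean of 4.38. Brightness depends on the probes, so these values do not order the subunits by amount of mRNA. The spread over the 12 arrays differed widely among subunits. The SD was 0.124 for ND-B16.6, the homologue of human GRIM-19, 0.177 for ND-B22 and 0.178 for ND-ACP, the mitochondrial acyl carrier protein. It was 0.78 for ND-MWFE, a small single-span membrane subunit, 0.635 for ND-51, which binds NADH and FMN, and 0.624 for ND-15. The SD of ND-MWFE was larger than that of 99.2% of genes, and that of ND-B16.6 larger than that of 38.8%.

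**Figure D1:**
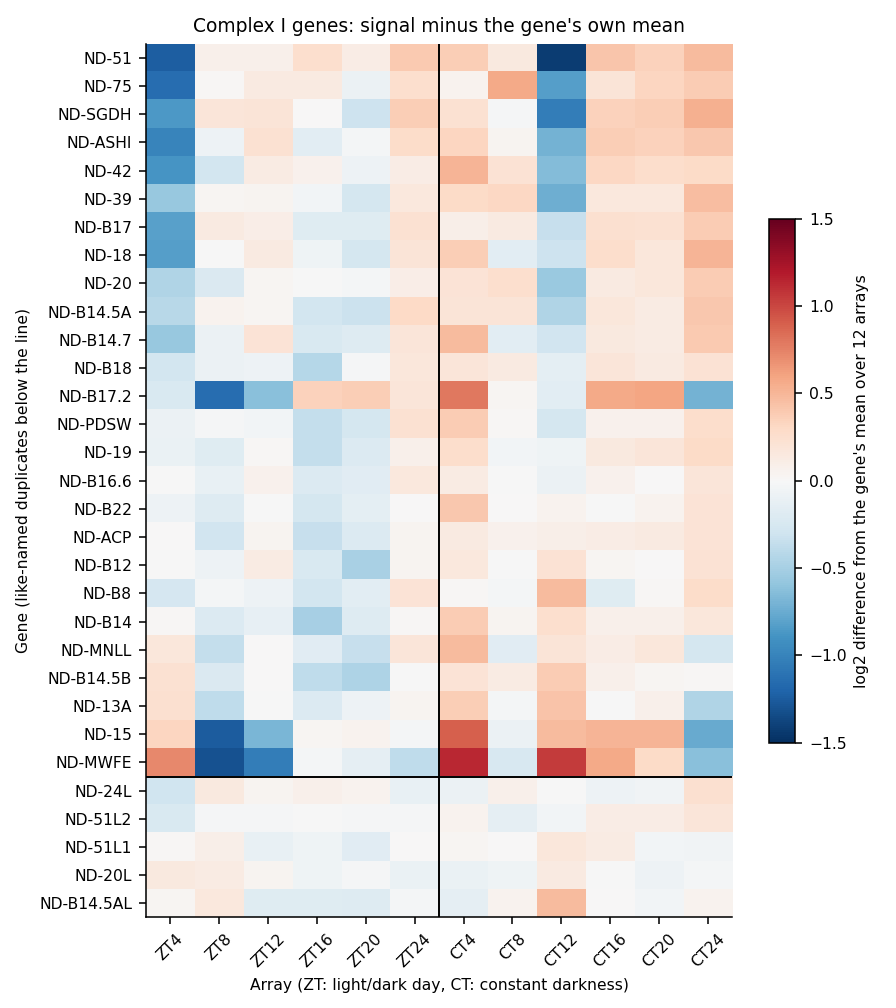
Each cell is the log2 signal of 1 gene (row) in 1 array (column) minus that gene's mean over the 12 arrays. The 26 subunits are ordered by their signal at ZT4 and CT12, with the 5 like-named duplicates below the line. ND-51 and ND-75 are the darkest blue at ZT4 of these subunits, and ND-51 and ND-SGDH at CT12. By contrast, ND-MWFE and ND-15 are blue at ZT8, ZT12 and CT24.

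The subunits did not follow a single course over the arrays. In 11 subunits the lowest LD value was at ZT4 and the lowest DD value at CT12, where the 3' and 5' ends of the control transcripts differed most; the same held for 14.1% of all probe sets. These 11 include all 3 measured core subunits, ND-75, ND-51 and ND-20, which hold iron-sulfur clusters or flavin. The others are the N module subunits ND-18 and ND-B14.5A, the Q module subunit ND-39, the proximal membrane subunits ND-42 and ND-B14.7, and the distal membrane subunits ND-ASHI, ND-SGDH and ND-B17. The mean of ZT4 and CT12 minus that of the other 10 arrays lay between -1.59 (ND-51) and -0.508 (ND-B14.7) in these 11.

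ND-51 was 7.85 (log2) at ZT4, 9.16 at ZT8, 9.17 at ZT12, 9.34 at ZT16, 9.2 at ZT20 and 9.48 at ZT24. In DD it was 9.46 at CT4, 9.23 at CT8, 7.67 at CT12, 9.51 at CT16, 9.44 at CT20 and 9.56 at CT24. Leaving ZT4 and CT12 aside, it stayed within 9.16 and 9.56 on both days. ND-75, the largest subunit, which carries several iron-sulfur clusters, was 7.53 at ZT4 and 7.85 at CT12 and between 8.58 and 9.24 elsewhere. ND-18, the homologue of human NDUFS4, ranged in LD from 6.74 at ZT4 over a median of 7.53 to 7.76 at ZT24, and in DD from 7.26 at CT12 over a median of 7.78 to 8.08 at CT24. ND-42, the homologue of NDUFA10, ranged in LD from 8.21 at ZT4 over a median of 9.09 to 9.21 at ZT12, and in DD from 8.44 at CT12 over a median of 9.37 to 9.60 at CT4. In both, the LD and DD values overlapped.

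A second set of 5 subunits had its lowest values at ZT8 and CT24. The share of all probe sets with these lowest arrays was not counted, so it is not known whether this is particular to complex I. It holds ND-MWFE and ND-15 of the proximal membrane arm, ND-B17.2 and ND-13A of the N module, which are the homologues of human NDUFA12 and NDUFS6, and ND-MNLL of the distal membrane arm. ND-MWFE was 10.15 at ZT4, 8.12 at ZT8, 8.39 at ZT12, 9.40 at ZT16, 9.29 at ZT20 and 9.04 at ZT24. In DD it was 10.56 at CT4, 9.18 at CT8, 10.47 at CT12, 9.99 at CT16, 9.71 at CT20 and 8.80 at CT24. It was thus high at ZT4, CT4 and CT12, where ND-51 was low in 2 of the 3 arrays, and its whole range was 5.40-fold.

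ND-15, the homologue of NDUFS5, ranged in LD from 7.0 at ZT8 over a median of 8.24 to 8.57 at ZT4, and in DD from 7.49 at CT24 over a median of 8.74 to 9.14 at CT4. ND-B17.2 ranged in LD from 5.81 at ZT8 over a median of 6.93 to 7.32 at ZT20, and in DD from 6.25 at CT24 over a median of 7.25 to 7.74 at CT4. ND-B17.2 was lower at ZT4 (6.72) and CT12 (6.80) than its mean, where ND-15 was higher than its own. Both genes overlapped between the days. ND-13A and ND-MNLL had the same lowest arrays with smaller ranges, of 1.84-fold and 1.78-fold. A second probe set of ND-MNLL also had its lowest DD value at CT24 (8.76), but its lowest LD value at ZT20 (8.78), and it correlated with the first at r = 0.897 over 12 arrays.

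**Figure D2:**
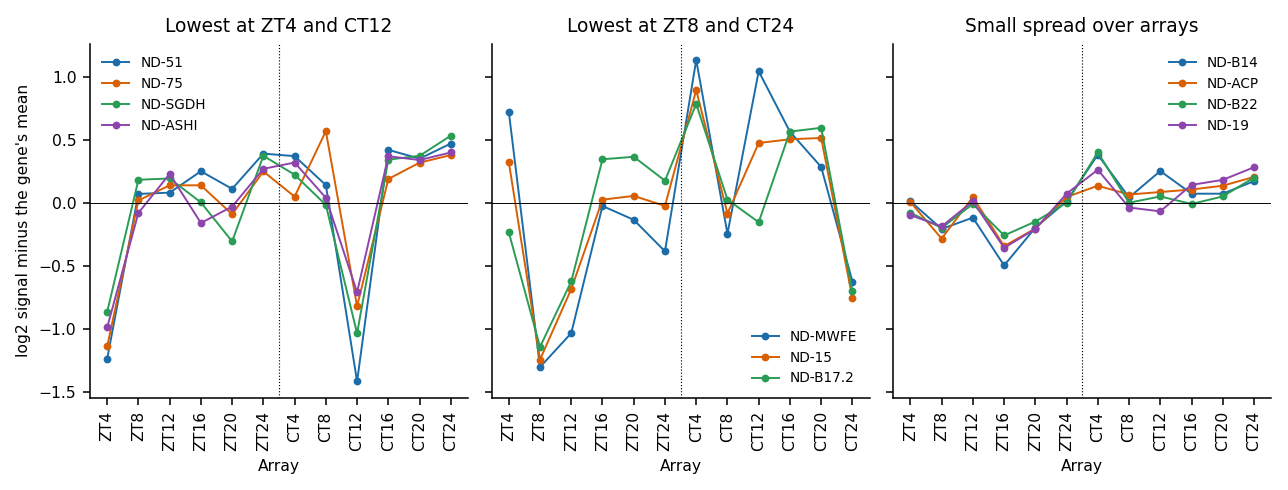
Log2 signal minus the gene's own mean (vertical axis) in each array (horizontal axis, LD to the left of the dotted line and DD to the right) for 11 subunits in 3 panels. ND-51 drops at CT12 and ZT4, where its signal before centring was 7.67 and 7.85. ND-MWFE drops at ZT8, where its signal before centring was 8.12. ND-B14, ND-ACP, ND-B22 and ND-19 stay closer to their means.

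Correlations between subunits over the 12 arrays ran from -0.56 (ND-13A with ND-SGDH) to 0.95 (ND-18 with ND-B14.7). Over all 325 pairs of subunits the median r was 0.424 and 68 pairs were negative, against a median of 0.004 over all pairs of genes; all pairs share the same arrays, so a disturbance of 1 array enters each of them. Within the 11 subunits lowest at ZT4 and CT12 the median r was 0.879, and within the 5 lowest at ZT8 and CT24 it was 0.779. Between these sets the median r was -0.153. The sets were formed from these values, so no test is given.

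The correlation of single subunits with the 3' minus 5' control signal, over 12 arrays, ran from -0.872 for ND-75 to 0.699 for ND-13A. It was under -0.5 for 10 subunits and over 0.5 for 4, namely ND-13A, ND-MWFE (0.68), ND-B14.5B (0.579) and ND-MNLL (0.51). Among all genes, 21.6% were under -0.5 and 16.9% over 0.5. The part of RNA quality in the courses of these subunits was not tested. Without ZT4 and CT12 the median r over subunit pairs was 0.646.

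The next comparison asked whether complex I transcripts differed in level between the LD day and the DD day. All 26 subunits had a higher mean in DD, by 0.0902 (ND-B16.6) to 0.721 (ND-MWFE) on the log2 scale, with a median of 0.232; over all probe sets the DD mean was higher in 50.0%, and the median over all genes was 0.00117. None of the 26 passed in limma after Benjamini-Hochberg adjustment over all probe sets, where 0.0859% passed, and the smallest adjusted p was 0.396. At an unadjusted p under 0.05, 7 subunits were higher in DD and 0 lower, against 2.33% of all probe sets higher. The members were chosen with a shift of respiratory genes between these days already known, so the shared direction is not independent evidence.

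The difference with the smallest p belonged to ND-B14, a Q module subunit and the homologue of human NDUFA6. In LD it was 7.76 at ZT4, 7.54 at ZT8, 7.63 at ZT12, 7.25 at ZT16, 7.55 at ZT20 and 7.76 at ZT24. In DD it was 8.13 at CT4, 7.79 at CT8, 8.0 at CT12, 7.82 at CT16, 7.82 at CT20 and 7.92 at CT24. All DD values lay above all LD values, and the difference was 0.335 ± 0.0794 (log2, SE; 1.26-fold; limma adjusted p 0.396). ND-ACP, to which ND-B14 is known to bind in the mammalian enzyme, was the only other subunit without overlap. ND-ACP ranged from 9.07 over a median of 9.31 to 9.46 in LD and from 9.48 over a median of 9.54 to 9.62 in DD, a difference of 0.245 ± 0.0759 (limma adjusted p 0.811). Groups did not overlap in this direction in 0.279% of all probe sets. It follows that ND-B14 and ND-ACP were higher in DD at all 6 clock times, which is no further result for them. With ND-B22 and ND-B12, 4 of 26 subunits were so, against 2.03% of all probe sets. The r of these 4 with the thoracic muscle score, whose mean was higher in DD, was 0.656 (ND-B14), 0.642 (ND-ACP), 0.632 (ND-B12) and 0.579 (ND-B22). It was over 0.5 in 6 of 26 subunits and in 8.58% of all genes. The part of muscle in these differences was not tested.

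ND-B22, a distal membrane subunit, ranged from 9.98 over a median of 10.13 to 10.24 in LD and from 10.23 over a median of 10.29 to 10.64 in DD. Its groups overlapped only at their edges, and the difference was 0.233 ± 0.0703 (limma adjusted p 0.789). ND-19 of the proximal membrane arm ranged from 8.74 over a median of 8.96 to 9.17 in LD and from 9.03 over a median of 9.26 to 9.38 in DD, a difference of 0.256 ± 0.0793 (limma adjusted p 0.811). ND-B14.5B, the homologue of human NDUFC2, ranged from 9.86 over a median of 10.21 to 10.56 in LD and from 10.34 over a median of 10.42 to 10.71 in DD. Its ZT4 value lay inside the DD range, and the difference was 0.278 ± 0.103 (limma adjusted p 0.999). ND-B18 and ND-B12 differed by 0.237 ± 0.09 and 0.208 ± 0.0918 and complete the 7 with an unadjusted p under 0.05.

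The 3 largest differences came with wide errors. They were 0.721 ± 0.395 (log2, SE; 1.65-fold) for ND-MWFE, 0.519 ± 0.315 for ND-15 and 0.375 ± 0.278 for ND-B17.2, followed by ND-B14, and the first 3 genes were lower in DD at 24 h, where CT24 was their lowest DD array. ND-42 differed by 0.312 ± 0.209 and ND-18 by 0.28 ± 0.185. For ND-MWFE, ND-15, ND-B17.2, ND-42 and ND-18 the limma adjusted p was 0.999. Leaving out 1 array gave 0.148 (without ZT4) to 0.485 (without CT12) for ND-42, 0.118 (without ZT4) to 0.372 (without ZT12) for ND-18, 0.172 (without CT4) to 0.644 (without CT24) for ND-B17.2 and 0.326 (without ZT8) to 0.803 (without CT24) for ND-15. ND-B16.6 had the smallest difference and overlapped throughout, from 10.04 over a median of 10.18 to 10.40 in LD and from 10.15 over a median of 10.28 to 10.42 in DD. The dim ND-B8 ranged from 4.11 over a median of 4.26 to 4.59 in LD and from 4.20 over a median of 4.40 to 4.86 at CT12 in DD.

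The parts of the enzyme had similar differences. The median was 0.209 (log2) for 7 N module subunits, 0.216 for 3 Q module subunits, 0.278 for 7 proximal and 0.233 for 9 distal membrane subunits. The ranges within the parts overlapped, and the parts were not tested against each other.

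**Figure D3:**
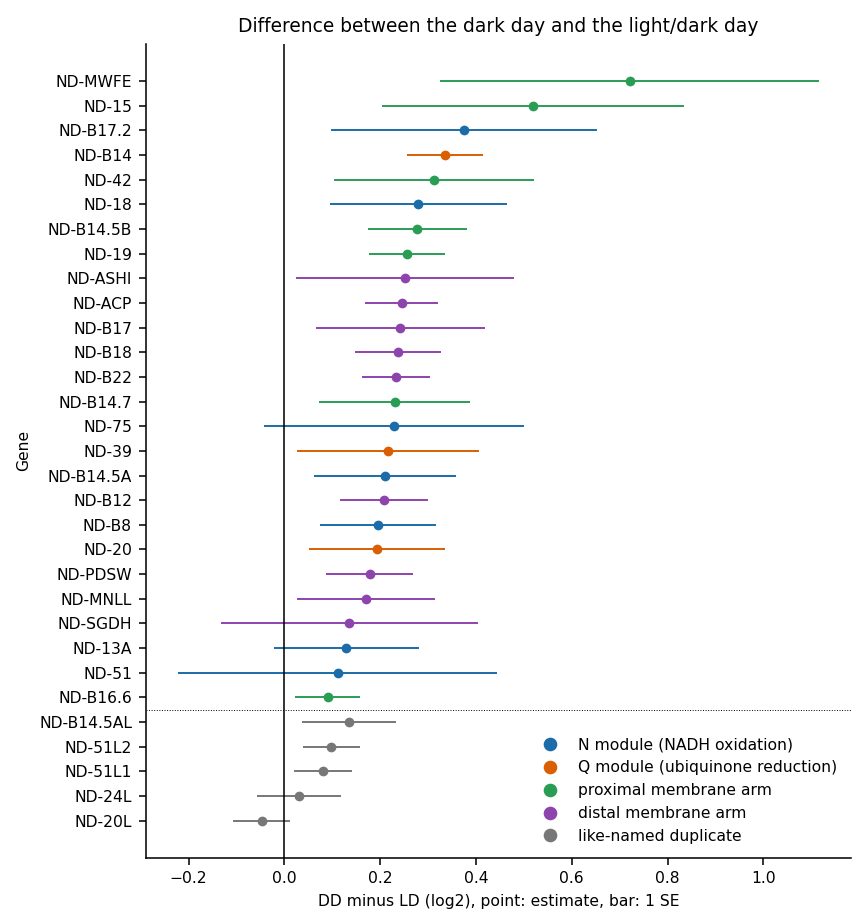
DD minus LD (horizontal axis, log2) for each gene (vertical axis), with points for the limma estimate over 12 arrays and bars for 1 SE, coloured by part of the enzyme. All 26 subunits lie above 0, from 0.0902 to 0.721, and of the duplicates below the dotted line ND-20L lies at -0.0475.

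The difference varied between clock times. The median over the 26 subunits was 0.527 (log2) at 4 h, 0.196 at 8 h, -0.123 at 12 h, 0.33 at 16 h, 0.352 at 20 h and 0.123 at 24 h. All 26 were higher in DD at 16 h and at 20 h, 25 at 4 h, 21 at 8 h and at 24 h, and 11 at 12 h. Of all genes, 49.5% were higher in DD at 4 h, 47.5% at 8 h and 51.1% at 12 h. The share was 52.1% at 16 h, 54.7% at 20 h and 53.8% at 24 h. The widest spreads were at 4 h and 12 h, which hold ZT4 and CT12. At 4 h ND-51 was 1.60 higher in DD and at 12 h it was lower, by -1.5, while ND-MWFE was 2.09 higher at 12 h. At 16 h the differences lay between 0.051 and 0.598 and at 20 h between 0.156 and 0.679, and at these times the 3' minus 5' control signal lay between 1.79 and 2.20 in all 4 arrays. The thoracic muscle score was higher in DD at both times, with -0.419 at ZT16 and -0.124 at CT16, and -0.393 at ZT20 and 0.201 at CT20.

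**Figure D4:**
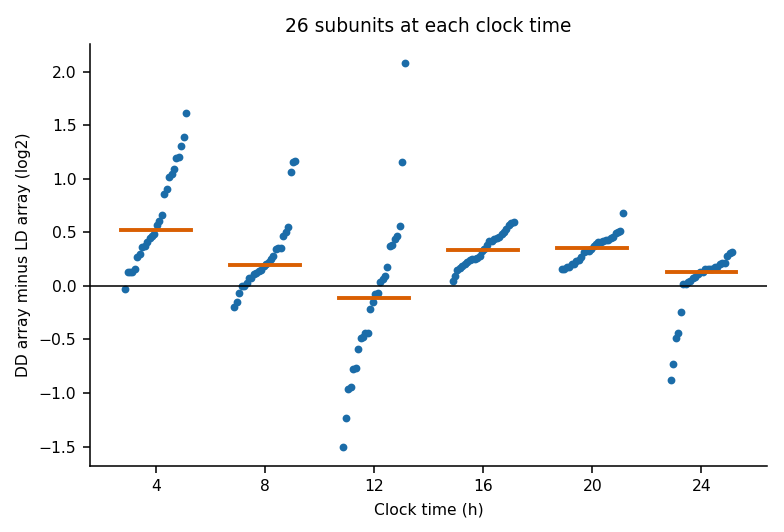
Difference between the DD and the LD array (vertical axis, log2) at each clock time (horizontal axis, h), with 1 point for each of 26 subunits and a line at the median. At 16 h and 20 h all points lie above 0, while at 12 h they run from -1.5 to 2.09.

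Without ZT4 and CT12 all 26 subunits were still higher in DD, with a median of 0.209. Without ZT4 alone the median was 0.146, with 23 of 26 higher, and without CT12 alone it was 0.307. When the thoracic muscle score entered the fit, the median was 0.182 and 25 of 26 were higher; DD exceeded LD in 18 of the 19 muscle markers (median 0.614), and 0 of them passed. With the male tract score it was 0.301; DD exceeded LD in 21 of those 26 markers (median 0.12). When a linear term for hours was added, an alternative chosen after the data were seen, the median was -0.136 and 10 of 26 were higher. Every DD array came later than every LD array, so darkness and time elapsed cannot be told apart.

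**Figure D5:**
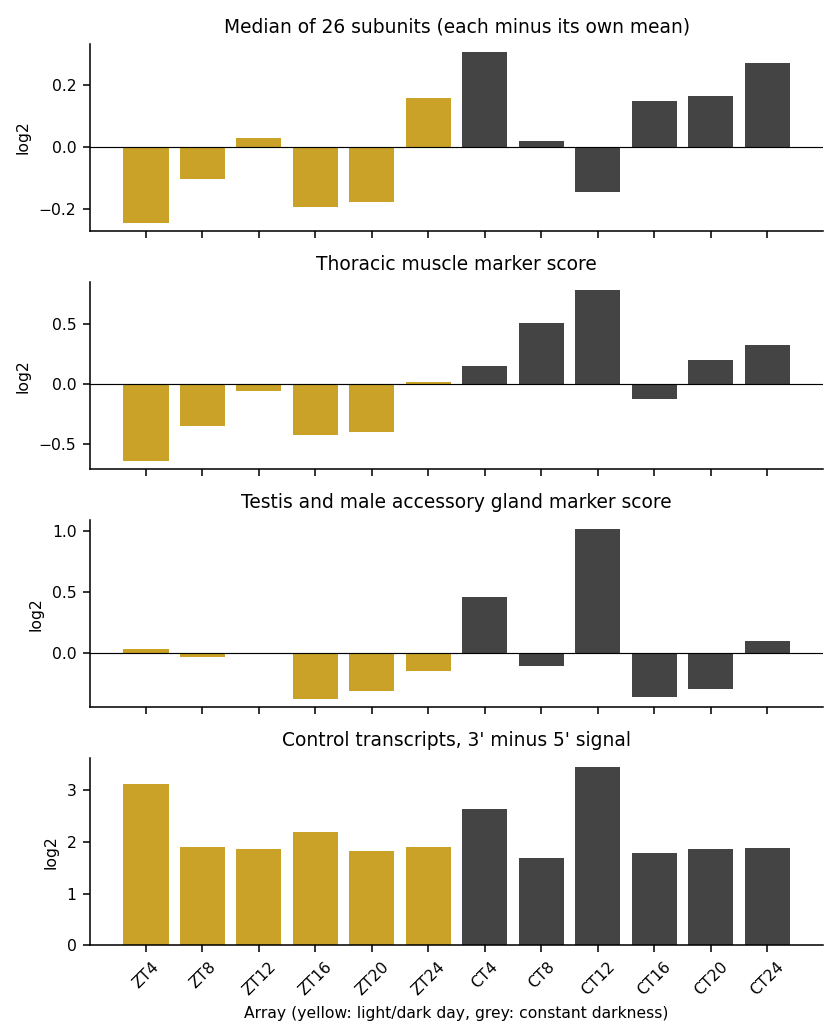
Values by array (horizontal axis) on a log2 scale. From the top, the panels show the median of 26 subunits after each was centred, the thoracic muscle score, the male tract score and the 3' minus 5' control signal. The subunit median is lowest at ZT4 (-0.243) and highest at CT4 (0.307).

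Other genes of the pathway were compared by the same fit. Of 30 measured genes of complexes II to V and cytochrome c, 29 had a higher mean in DD (median 0.204), against 50.0% of all probe sets, and 0 passed, while 9 had an unadjusted p under 0.05 and a higher mean in DD, against 2.33% of all probe sets; ATPsyndelta differed by 0.263 ± 0.0785 and COX5B by 0.245 ± 0.0786. This list overlaps one already known to shift in these data, so its direction is not independent evidence. Of 6 measured complex I assembly factors, 5 were higher and 1 lower, with a median of 0.0738 and 0 passing. Nubpl, which delivers iron-sulfur clusters to complex I, differed by 0.339 ± 0.273, and sicily, a chaperone-like factor for complex I assembly, by 0.0945 ± 0.0672. Of 7 measured biogenesis factors, 3 were higher and 4 lower, with a median of -0.0055; TFAM, which packages mitochondrial DNA, differed by -0.0133 ± 0.0509. The cytosolic NADH-consuming enzyme genes Gpdh1 and Mdh1 differed by -0.207 ± 0.103 and -0.179 ± 0.0971. The limma adjusted p of the genes named here was 0.759 or higher.

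A further comparison asked whether the 31 genes had a daily rhythm with a period of 24 h. None of the 31 genes passed in limma (adjusted p 0.994 or higher), where 0.00716% of all probe sets passed. At an unadjusted p under 0.05 there was 1 of 26 subunits, against 3.34% of all probe sets. It was ND-PDSW, a distal membrane subunit, with an amplitude (mean to peak) of 0.196 ± 0.0646 (log2, SE) and a fitted peak at 2.28 ± 1.26 h. ND-PDSW ranged from 9.36 at ZT16 over a median of 9.64 to 9.94 at ZT24 in LD, and from 9.45 at CT12 over a median of 9.78 to 10.09 at CT4 in DD. Its lowest arrays thus fell at different clock times on the 2 days.

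The next smallest p-values belonged to ND-B14, ND-B22, ND-B14.5B and ND-19, with amplitudes of 0.139 ± 0.0562, 0.11 ± 0.0497, 0.16 ± 0.0729 and 0.119 ± 0.0561. Their fitted peaks lay at 3.65, 2.62, 6.66 and 0.877 h. Over the 26 subunits the amplitude ranged from 0.053 to 0.399, the highest being that of ND-B17.2, with an SE of 0.197 and a fitted peak at 19.9 h. ND-MWFE, which varied most over the arrays, had an amplitude of 0.0971 ± 0.28.

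The course of the 2 days was compared by the regime by rhythm terms. No member passed in limma (smallest adjusted p 0.858), and 0 of 31 had an unadjusted p under 0.05, against 3.53% of all probe sets, where 0.0% passed. For light, the gap between the days at 4, 8 and 12 h, when lights were or had just been on in LD, was set against the gap at the 3 later times. No member passed in limma (adjusted p 0.998 or higher), where 0.0% of all probe sets passed. At an unadjusted p under 0.05 there were 2 subunits, against 3.83% of all probe sets, and both were lower in light, as were 2.26% of all probe sets. These were ND-B17.2, with a light term of -1.03 ± 0.333 (log2, SE), and ND-15, with -0.891 ± 0.347. ND-MWFE, the third of these by p, had -0.926 ± 0.423. Without ZT24 or without CT24 the term was -0.493 for ND-15 and -0.662 for ND-B17.2, and without ZT12 or without CT12 it was -0.475 for ND-MWFE. These 3 genes were chosen after their values were seen. They were low at ZT8 and ZT12 and also at CT24, in darkness. At ZT4, also in light, ND-MWFE (10.15) and ND-15 (8.57) had their highest LD values, and ND-B17.2 was 6.72.

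The 5 like-named duplicates had SDs over the 12 arrays between 0.0935 (ND-20L) and 0.186 (ND-B14.5AL). Such duplicates were presumed beforehand to be dim, testis-type genes. Not all of them were dim, and whether they are testis-type was not tested. ND-51L2, with a mean of 4.75 (log2), and ND-24L, with 4.84, lay below the array medians, ND-51L1, with 5.08, lay just above them, and ND-20L, with 5.74, lay higher. ND-B14.5AL had a mean of 7.61, far above the array medians. No detection call was used, so it is not known which of the dim probe sets were above background.

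ND-B14.5AL was 7.63 at ZT4, 7.76 at ZT8, 7.42 at ZT12, 7.43 at ZT16, 7.41 at ZT20 and 7.58 at ZT24. In DD it was 7.47 at CT4, 7.66 at CT8, 8.08 at CT12, 7.61 at CT16, 7.56 at CT20 and 7.66 at CT24. Its CT12 value stood above all others, in the array where the male tract score, the thoracic muscle score and the 3' minus 5' control signal were all highest. Over 12 arrays it correlated with these at r = 0.684, 0.559 and 0.528. The r with the male tract score was over 0.5 in 13.9% of all genes and in 6 of 26 subunits, among them ND-B8 (0.711) and ND-B14.5B (0.682). With the muscle score it was over 0.5 in 8.58% of all genes and in 6 of 26 subunits. These 6 were ND-B8 (0.807), ND-B14 (0.656), ND-ACP (0.642), ND-B12 (0.632), ND-B14.5B (0.583) and ND-B22 (0.579). ND-51L1 ranged from 4.92 over a median of 5.05 to 5.17 in LD and from 5.03 over a median of 5.10 to 5.26 in DD, and it too was highest at CT12 (r = 0.55 with the male tract score). The r was 0.389 for ND-20L, -0.068 for ND-24L and -0.114 for ND-51L2. The part of male tissue, muscle or RNA quality in these values was not tested.

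ND-51L2 ranged from 4.52 at ZT4 over a median of 4.73 to 4.74 in LD and from 4.61 over a median of 4.83 to 4.93 in DD. ND-24L ranged from 4.54 at ZT4 over a median of 4.88 to 4.98 in LD and from 4.75 over a median of 4.81 to 5.08 in DD. ND-20L ranged from 5.64 over a median of 5.76 to 5.89 in LD and from 5.64 over a median of 5.70 to 5.88 in DD. In all 5 duplicates the days overlapped. DD minus LD was 0.135 ± 0.0977 for ND-B14.5AL, 0.0978 ± 0.0599 for ND-51L2, 0.0807 ± 0.0598 for ND-51L1, 0.0312 ± 0.0876 for ND-24L and -0.0475 ± 0.059 for ND-20L (limma adjusted p 0.999 for each). The mean was higher in DD in 4 of 5, and 0 of 5 were higher at all 6 clock times, against 2.03% of all probe sets. Correlations among the duplicates ran from -0.451 to 0.783 over 12 arrays, with 5 of 10 pairs negative.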

How the data were processed

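Biotin-labelled RNA of sieved heads was hybridized to 1 Affymetrix array per time point. The authors deposited a log2 value for each probe set on each array; the submitters' processing notes name RMA, with no version and no statement of which arrays were normalized together. RMA includes quantile normalization, so a shift shared by most transcripts would not show. The deposited values were used as they stand.

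Of 14010 probe sets, 44 controls were left out. Gene names came from the platform annotation (12443 with 1 gene, 327 with several, 1196 with none), and all 31 members matched a RefSeq gene by gene ID. That table has 40 ND- genes. The other 9 (ND-13B, ND-23, ND-24, ND-30, ND-49, ND-49L, ND-AGGG, ND-B15 and ND-MLRQ) had no single-gene probe set and are not members. Of these, only a probe set shared by ND-13B and another gene is described, under other observations.

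Tests used limma 3.58.1 in R 4.3.3 (lmFit, eBayes) on all 13966 probe sets, Benjamini-Hochberg over all of them at 0.05, two-sided. Level and rhythm came from a model of regime with a 24 h cosine and sine (8 residual degrees of freedom), rhythm differences from added interactions (6) and light from regime, a 6-level clock time and an indicator for ZT4, ZT8 and ZT12 (4). The fits were also run on simulated data with independent noise. That noise holds no disturbance shared by the genes of an array, so it does not show how the fits behave on these arrays. SEs of amplitude and peak came from the delta method.

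LD and DD arrays of the same clock time share only that time, not animals, so pairing was an alternative. Members, lists, and alternatives were chosen with earlier results of these data known. Values by array or by day are given for the subunits with the 3 highest and lowest means, the 8 largest day differences, the 5 smallest rhythm p-values and the 3 largest and smallest SDs, and for all duplicates.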

Additional observations from a re-analysis of the deposited data

Results flagged for a closer look

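In 62 groups of 6 arrays (31 genes on each day), 13 held an array far from the other 5 by Dixon's criterion, which chance alone gives in about 1 group of 20. Over all genes it was met in 10.5% of such groups, most often at ZT4 and CT12, so the nominal share is not the background of these arrays. Of these arrays 9 were CT12 and 4 were ZT4, where the control transcripts had the widest gap between 3' and 5' signal. At ZT4, ND-75 was 7.53 (log2; others 8.58 to 8.92), ND-51 was 7.85 (others 9.16 to 9.48), ND-ASHI was 7.87 (others 8.70 to 9.13) and the dim ND-51L2 was 4.52 (others 4.73 to 4.74). At CT12, ND-51 was 7.67 (others 9.23 to 9.56), ND-39 was 7.92 (others 8.81 to 9.12), ND-ASHI was 8.15 (others 8.90 to 9.26) and ND-SGDH was 8.23 (others 9.25 to 9.80). Also at CT12, ND-42 was 8.44 (others 9.31 to 9.60), ND-B18 was 8.49 (others 8.77 to 8.85), ND-20 was 8.78 (others 9.48 to 9.72) and ND-B14.5A was 9.42 (others up to 10.28). ND-B14.5AL was the only one high there, at 8.08 (others 7.47 to 7.66).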

How the results depend on the processing

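No member passed in any test under any alternative, 25 for DD minus LD, 22 for rhythm, 17 for rhythm differences and 17 for light, and the smallest adjusted p was 0.183. With clock time as a block (the paired fit) the subunit median of DD minus LD was 0.232 and 26 of 26 were higher, as in the unpaired fit; a shared clock time is no shared animal. Over the fits that left out 1 array, the median lay between 0.146 (without ZT4) and 0.307 (without CT12) and the count of subunits higher in DD between 23 and 26. At least 1 array moved DD minus LD by over 1.5 times in 17 of 26 subunits; the other 9 were ND-B22, ND-ACP, ND-B18, ND-B14.5B, ND-B14, ND-B12, ND-19, ND-PDSW and ND-MWFE. The median of DD minus LD kept its sign under centring, quantile normalization and a mean of at least 5. It also did with all probe sets of a gene, no clock term, the marker and control scores as covariates, and without ZT4 and CT12. Further quantile normalization lowered the median to 0.188, from 0.232 in the main fit, with 26 of 26 higher in DD. The median r over subunit pairs was 0.646 without ZT4 and CT12, 0.29 when centred within days and 0.627 without ZT4, CT4 and CT12.

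Single estimates changed sign as follows, none past the threshold, and the cause was not tested. Leaving out 1 array gave ranges of -0.0034 to 0.445 for ND-75, -0.0599 to 0.362 for ND-SGDH, -0.16 to 0.414 for ND-51 and -0.0339 to 0.0719 for ND-24L. Without ZT4 and CT12, ND-24L was -0.0214. With the muscle score, ND-24L was -0.0645, ND-B14.5AL -0.0041 and ND-B8 -0.211.

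With a steady trend over the hours, which runs with regime by construction, the median was -0.136 and 10 of 26 were higher. ND-75 was then -1.0, ND-SGDH -0.828, ND-B17 -0.821, ND-51 -0.684, ND-B8 -0.644, ND-B14.5A -0.58, ND-ASHI -0.565, ND-18 -0.548, ND-39 -0.414 (ND-39 and those before it log2). ND-B14.7 was -0.255, ND-20 -0.188, ND-B18 -0.153, ND-B16.6 -0.14, ND-B12 -0.132, ND-PDSW -0.0467 and ND-42 -0.0073. Other subunits moved upward, ND-MWFE to 3.67, ND-15 to 2.89, ND-B17.2 to 2.28, ND-13A to 0.901 and ND-MNLL to 0.792. Among duplicates ND-24L was -0.463, ND-B14.5AL -0.229 and ND-51L2 -0.071.

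The number of arrays, 12 with no repeated time point, limits the precision, and dim probe sets such as ND-B8, ND-24L and ND-51L2 are limited by signal over background, which was not measured.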

Other observations

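The genes whose course over the 12 arrays was most like that of ND-MWFE were searched for after its values were seen. Over 12 arrays the highest correlation was with ctp, the dynein light chain gene (r = 0.959), followed by REPTOR-BP (0.949), sei (0.946) and CG7888 (0.94). ND-15 came next (0.938), followed by the complex III subunit genes ox (0.938) and UQCR-14 (0.937), and Sdhaf3, named for an assembly factor of complex II, was among the first 12 (0.927). Gene ox was 11.01 (log2) at ZT4, 9.30 at ZT8, 9.43 at ZT12 and 9.49 at CT24, against 10.35 to 11.23 in the other arrays. All these values share the same arrays, and no test is given for genes chosen by their likeness.

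A probe set that matches both ND-13B, a Q module subunit, and CG33493 was left out by the rule on single symbols. It ranged from 7.36 to 8.01 and differed between the days by -0.0308 ± 0.106 (log2, SE; limma adjusted p 0.999).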
